A study of Homo sapiens with 9 samples.

Results

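Described here are 32 androgen-regulated genes other than the kallikreins, listed by symbol, out of 67071 gene identifiers in the count table. Each symbol was matched to its Ensembl identifier, and 29 of the 32 had enough reads to be tested among 16855 genes. The RNA came from 22Rv1, a prostate carcinoma line grown out of a human tumour xenograft. There were 9 libraries in 3 groups: 3 of cells with a first short hairpin RNA against CHD9 (shCHD9_1, here hairpin 1), 3 of cells with a second one (shCHD9_2, hairpin 2), and 3 of control cells with a hairpin against GFP (shGFP). The labels give the shGFP cells the genotype WT, every library carries a hairpin, and all cells grew in RPMI with 10% fetal bovine serum. Androgen was not varied between the groups, so the libraries show the level of these genes in serum and not their response to hormone. CHD9 is a chromodomain helicase, one of the ATP-dependent chromatin remodellers, and the series' design text names its knockdown against control knockdown as the comparison.

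Androgens, testosterone and dihydrotestosterone, are steroid hormones on which prostate cells of the luminal type depend. They act on transcription, mostly through enhancers that hold DNA elements built from half-sites close to AGAACA, where coactivators and the transcription machinery are recruited. The genes turned on serve secretion, polyamine synthesis, sugar and lipid metabolism and signalling, and several of them are used as readouts of androgen action in prostate cancer.

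CHD9 itself (ENSG00000177200.17, chromosome 16, 53055033 to 53329150) averaged 15.4 ± 1.07 CPM (read counts scaled to library size, SD, n = 3) in hairpin 1 libraries, 18.8 ± 0.465 CPM in hairpin 2 libraries and 22.2 ± 1.42 CPM in shGFP. All 6 hairpin libraries lay below all 3 shGFP libraries. The log2 fold change was -0.52 with hairpin 1 (edgeR quasi-likelihood test, Benjamini-Hochberg adjusted p = 7.2e-08) and -0.24 with hairpin 2 (adjusted p = 0.006, same edgeR test), a call lost without shGFP replicate 3 (-0.20, adjusted p = 0.054). Libraries held 18911142 to 31968602 counts. Whether the replicates were separate cultures is not in the labels, and p-values therefore reflect the variation of these libraries alone, possibly a technical one. The summed level of 3 prostate luminal markers (KRT8, KRT18 and HOXB13) was 936 to 954 CPM in hairpin 1 libraries, 828 to 853 CPM in hairpin 2 libraries and 784 to 803 CPM in shGFP. HOXB13 was higher with both hairpins, whereas KRT8 and KRT18 were higher with hairpin 1 (edgeR log2 0.11 for each) and lower with hairpin 2 (-0.09 for KRT8 and -0.07 for KRT18). All 4 basal, 4 immune and 3 endothelial markers were under 1 CPM in every library, with the basal keratin KRT5 at 0. The 5 neuroendocrine markers summed to 4.66 to 5.16 CPM in hairpin 1 libraries, 2.47 to 3.11 CPM in hairpin 2 libraries and 2.74 to 3.17 CPM in shGFP, most of it from SYP, with CHGA at 0. CHGB went the other way, at 0.193 CPM with hairpin 1, 0.278 CPM with hairpin 2 and 0.796 CPM in shGFP. The 5 fibroblast markers summed to 7.14 to 7.79 CPM in hairpin 1 libraries, 6.91 to 7.88 CPM in hairpin 2 libraries and 5.95 to 6.62 CPM in shGFP, most of it from COL1A1, while LUM averaged 0.0603 CPM with hairpin 1, 0.0627 CPM with hairpin 2 and 0.983 CPM in shGFP. The part of these markers in the results below was not tested, and in bulk RNA fewer cells of a type and less RNA per cell cannot be told apart.

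The androgen-regulated genes did not move as a block. Against shGFP, the mean of both hairpins was higher for 14 of the 29 tested genes and lower for 9, while 6 did not pass the test. Of all genes tested, 45.5% were called in this comparison, 22.3% higher and 23.2% lower. Calls were more frequent among well expressed genes: of all genes of at least 10 CPM on average, 28.8% were called higher and 31.3% lower, and of the 25 androgen-regulated genes at that level 14 were higher and 8 lower. STEAP4 reached the count filter only in its 3 shGFP libraries. The filter thus fixed that these lay above the hairpin libraries, though not the outcome of each test. Without STEAP4 the counts were 14 higher, 8 lower and 6 not passed. The median log2 fold change was 0.10 over the 29 genes and 0.00 over all genes tested, and the median size of the change was 0.26 against 0.17. With hairpin 1 the median over the 29 genes was 0.15 and with hairpin 2 it was 0.00. Only NDRG1, AZGP1 and STEAP4 were called with a change of more than 1.5-fold, as were 8.1% of all genes tested.

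With hairpin 1, 15 genes were higher than in shGFP, 7 were lower and 7 did not pass, against 47.3% of all genes called, 23.9% higher and 23.4% lower. With hairpin 2, 11 were higher, 8 lower and 10 not passed, against 35.7% of all genes called, 17.2% higher and 18.5% lower. Without STEAP4, 7 were lower with hairpin 2. The 2 comparisons share their shGFP libraries. Higher with each hairpin were 11 genes, namely ABCC4, AZGP1, MED28, ZBTB10, FKBP5, PMEPA1, HOMER2, NDRG1, TPD52, CENPN and SMS, and 13.2% of all genes tested had that pattern. Lower with each hairpin were 6, namely SLC45A3, ELL2, C1orf116, ODC1, SAT1 and ABHD2, beside 13.6% of all genes. The count called in opposite directions by the hairpins was 0 in edgeR and in DESeq2, and 0 also at an unadjusted p under 0.05, and of all genes tested 0.86% were so called in edgeR, so the 0 says nothing particular about these genes. All 6 hairpin libraries lay above all 3 shGFP libraries for 10 genes and below them for 8 (7 without STEAP4), a separation shown by 15.5% and 16.2% of all genes tested.

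**Figure D1:**
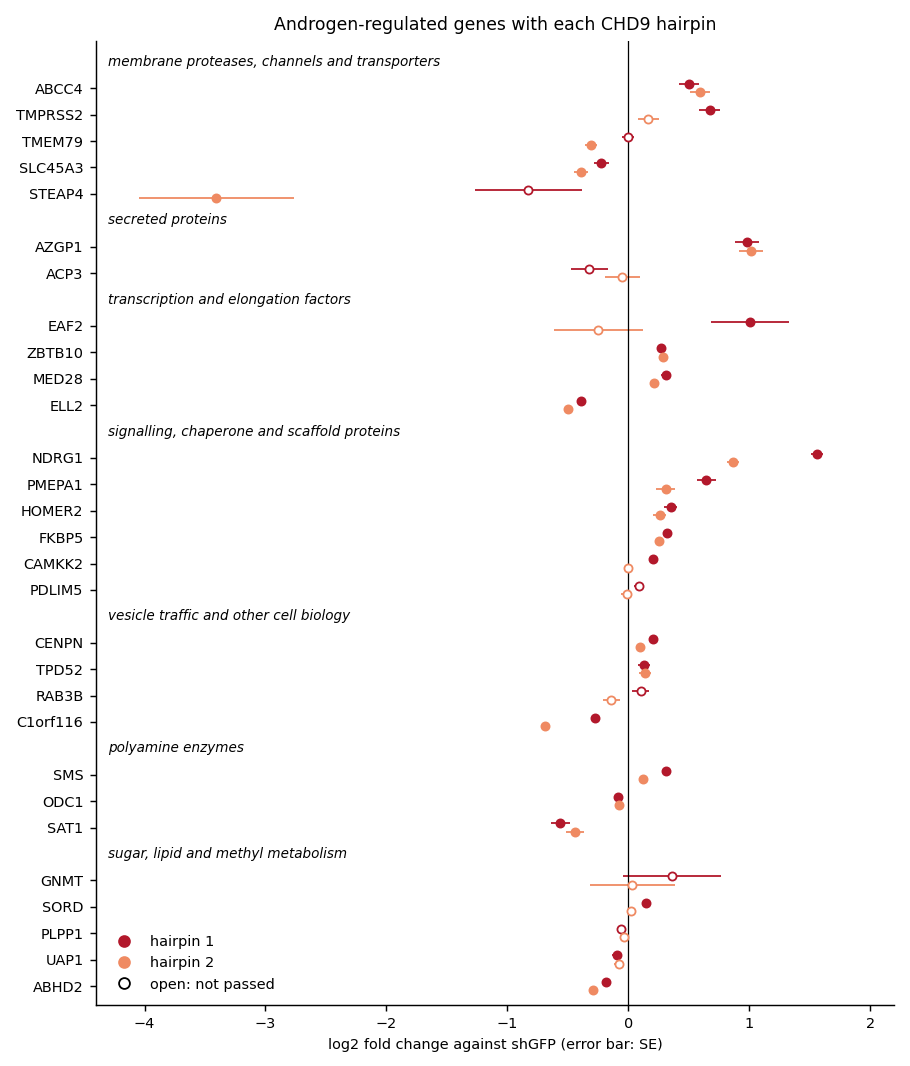
Log2 fold change against shGFP (horizontal axis) of the 29 tested androgen-regulated genes, grouped by role, with hairpin 1 in dark red and hairpin 2 in orange. Bars are standard errors (for CAMKK2 with hairpin 2, where the change is 0.00, none is drawn), and open points did not pass the edgeR test. NDRG1 with hairpin 1 stands farthest to the right, followed by AZGP1 with both hairpins and EAF2 with hairpin 1, and STEAP4 with hairpin 2, which rests on 4 counts, farthest to the left.

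The start regions of 4 of these genes are shown, to give the DNA beside a gene that rose, a gene that fell and the tested genes in which the androgen response half-site was found. NDRG1, which rose more than the gene chosen, was left out of the choice. TRPM8, which was not tested, is not shown either. They are RefSeq windows on GRCh38.p14 that run from 250 bases before a gene's start to 50 bases from it on, written 5′ to 3′ on the gene's strand. The letters AGAACA and their reverse complement TGTTCT were searched on these windows and are in capitals. FKBP5 (chr6:35728534-35728833, minus strand) holds one at its start, and PMEPA1 holds one at position 23 from an annotated start (chr20:57711423-57711722, minus strand) and one at position -229 from another (chr20:57710528-57710827, minus strand). AZGP1 (chr7:99975982-99976281, minus strand), which rose most among the genes with a window shown, and SAT1 (chrX:23782923-23783222, plus strand), which fell most among them, hold none in these windows.
FKBP5: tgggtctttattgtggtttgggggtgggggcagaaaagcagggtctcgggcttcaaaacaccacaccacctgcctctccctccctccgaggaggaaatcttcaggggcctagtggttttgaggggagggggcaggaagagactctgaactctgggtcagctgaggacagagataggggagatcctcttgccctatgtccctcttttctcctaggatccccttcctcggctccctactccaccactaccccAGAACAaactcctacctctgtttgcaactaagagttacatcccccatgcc
PMEPA1 first start: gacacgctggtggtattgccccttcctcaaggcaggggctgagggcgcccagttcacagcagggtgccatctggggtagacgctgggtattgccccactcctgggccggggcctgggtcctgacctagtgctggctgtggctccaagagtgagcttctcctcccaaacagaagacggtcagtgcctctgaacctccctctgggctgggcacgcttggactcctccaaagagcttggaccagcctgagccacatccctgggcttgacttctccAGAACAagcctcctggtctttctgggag
PMEPA1 second start: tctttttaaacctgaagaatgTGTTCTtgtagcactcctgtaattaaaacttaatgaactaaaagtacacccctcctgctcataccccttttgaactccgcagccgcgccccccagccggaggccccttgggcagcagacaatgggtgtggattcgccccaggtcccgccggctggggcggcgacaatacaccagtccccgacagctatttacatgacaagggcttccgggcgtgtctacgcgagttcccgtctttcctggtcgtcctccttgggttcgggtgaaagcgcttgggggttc
AZGP1: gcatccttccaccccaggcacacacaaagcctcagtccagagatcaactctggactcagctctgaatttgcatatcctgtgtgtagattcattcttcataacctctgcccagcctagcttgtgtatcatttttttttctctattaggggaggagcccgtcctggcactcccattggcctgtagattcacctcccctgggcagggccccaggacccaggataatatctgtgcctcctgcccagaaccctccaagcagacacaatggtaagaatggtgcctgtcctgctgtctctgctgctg
SAT1: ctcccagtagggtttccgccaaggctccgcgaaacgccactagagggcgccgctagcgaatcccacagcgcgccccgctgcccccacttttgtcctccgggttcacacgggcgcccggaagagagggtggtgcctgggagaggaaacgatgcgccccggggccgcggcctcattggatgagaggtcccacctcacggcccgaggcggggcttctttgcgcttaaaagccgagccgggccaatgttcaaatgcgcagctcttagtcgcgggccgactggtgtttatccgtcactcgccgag

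Windows were found for 24 of the 32 genes, 39 windows in all. The half-site letters were in 4 windows of 3 genes (FKBP5, PMEPA1 and TRPM8), against 14.8% of all 35116 windows and 17.5% of all 27305 genes with a window. The palindromic element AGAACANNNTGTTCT, which contains both half-sites, was in 0 windows of these genes and in 1 of all windows. A match of letters is not a binding site, and no binding was measured in these libraries.

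Among the membrane proteins, transporters and proteases, ABCC4 and TMPRSS2 rose while SLC45A3 and TMEM79 fell. ABCC4 (ENSG00000125257.16), an ATP-driven efflux pump of cyclic nucleotides and other organic anions, had 18.1, 18.3 and 22.0 CPM in hairpin 1 libraries, 19.6, 21.4 and 21.5 CPM in hairpin 2 libraries and 14.6, 14.9 and 12.2 CPM in shGFP. All 6 hairpin libraries were above the shGFP libraries, with log2 fold changes of 0.50 with hairpin 1 (SE 0.08, edgeR adjusted p = 2.2e-06) and 0.59 with hairpin 2 (SE 0.08, adjusted p = 1.2e-07). TMPRSS2 (ENSG00000184012.12, chromosome 21, 41464551 to 41531116), the membrane serine protease whose promoter is fused to ERG in many prostate tumours, had 19.0, 16.8 and 17.6 CPM in hairpin 1 libraries, 12.7, 12.3 and 12.5 CPM in hairpin 2 libraries and 12.7, 10.7 and 10.3 CPM in shGFP. Its hairpin 1 libraries stood above all others, while the hairpin 2 libraries overlapped shGFP. The log2 fold change was 0.67 with hairpin 1 (SE 0.09, edgeR adjusted p = 7.3e-09) and 0.16 with hairpin 2 (SE 0.09, adjusted p = 0.15), and it passed with hairpin 2 without shGFP replicate 1 (0.25, adjusted p = 0.04). The difference between the hairpins was 0.51 (SE 0.08, edgeR adjusted p = 3.3e-06).

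SLC45A3, prostein, a transporter family member with prostate-restricted expression, averaged 24.7 ± 0.614 CPM in hairpin 1 libraries, 21.8 ± 0.865 CPM in hairpin 2 libraries and 28.8 ± 0.577 CPM in shGFP (SD, n = 3 each). Both falls passed (log2 -0.22 with hairpin 1, edgeR adjusted p = 0.0021, and -0.39 with hairpin 2, adjusted p = 1.1e-06), and no hairpin library reached an shGFP library. TMEM79, a multi-pass membrane protein known from skin barrier formation, averaged 44.6 ± 1.68 CPM in hairpin 1 libraries, 36.2 ± 1.88 CPM in hairpin 2 libraries and 44.6 ± 2.15 CPM in shGFP. It fell with hairpin 2 (log2 -0.31, edgeR adjusted p = 4.7e-06) and did not pass with hairpin 1 (adjusted p = 0.97), and the hairpins differed by 0.31 (adjusted p = 7.8e-06). With offsets for GC content and exonic length it was lower with hairpin 1 too (log2 -0.14, adjusted p = 0.015), and its call over both hairpins was lost without shGFP replicate 3 (-0.11, adjusted p = 0.082). STEAP4, a metalloreductase of the plasma membrane and endosomes, was near the detection limit, with 6, 7 and 10 counts in hairpin 1 libraries, 1, 1 and 2 in hairpin 2 libraries and 12, 11 and 17 in shGFP. Its summed level with hairpin 2 was 0.086 of that in shGFP (95% interval 0.0223 to 0.238, exact conditional interval for counting error only), and with hairpin 1 it was 0.561 (0.321 to 0.96). STEAP4 was tested at all only through its level in shGFP, so these values are a description and its edgeR call supports nothing. TRPM8, the cold-sensing cation channel, had 0 counts in all 9 libraries, which allows up to 0.158 CPM in the smallest library (3 counts).

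Of the 2 secreted proteins, AZGP1 rose and ACP3 did not pass. AZGP1 (ENSG00000160862.13, chromosome 7, 99966720 to 99976157), the zinc-alpha-2-glycoprotein of seminal fluid, had 12.8, 14.3 and 12.7 CPM in hairpin 1 libraries, 14.8, 13.2 and 12.8 CPM in hairpin 2 libraries and 7.21, 5.91 and 7.07 CPM in shGFP. Every hairpin library was well above every shGFP library, and the hairpin 1 and hairpin 2 libraries overlapped. The log2 fold change was 0.98 (SE 0.10, edgeR adjusted p = 2.9e-11) with hairpin 1 and 1.01 (SE 0.10, adjusted p = 1.6e-11) with hairpin 2, and the difference between them was -0.03 (SE 0.09, adjusted p = 0.82). ACP3, prostatic acid phosphatase, averaged 3.37 ± 0.299 CPM in hairpin 1 libraries, 4.06 ± 0.287 CPM in hairpin 2 libraries and 4.20 ± 0.375 CPM in shGFP. Its log2 fold changes were -0.32 with hairpin 1 (edgeR adjusted p = 0.083) and -0.05 with hairpin 2 (adjusted p = 0.84).

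Of the 5 transcription and elongation factors, ELL2 fell, MED28 and ZBTB10 rose, EAF2 differed between the hairpins and MAF was too low to test. ELL2 (ENSG00000118985.16, chromosome 5, 95885098 to 95962071), an RNA polymerase II elongation factor, had 244, 259 and 252 CPM in hairpin 1 libraries, 223, 239 and 238 CPM in hairpin 2 libraries and 325, 323 and 344 CPM in shGFP. The hairpin libraries all lay below shGFP, with log2 fold changes of -0.39 with hairpin 1 (SE 0.03, edgeR adjusted p = 3.6e-15) and -0.50 with hairpin 2 (SE 0.03, adjusted p = 2.5e-18). EAF2, which binds ELL proteins and stimulates their activity, had 22, 31 and 36 counts in hairpin 1 libraries, 16, 16 and 10 in hairpin 2 libraries and 11, 17 and 15 in shGFP. It averaged 1.27 ± 0.157 CPM in hairpin 1 libraries, 0.533 ± 0.0884 CPM in hairpin 2 libraries and 0.634 ± 0.101 CPM in shGFP, with the hairpin 1 libraries above all others. The log2 fold change was 1.00 with hairpin 1 (SE 0.32, edgeR adjusted p = 0.0085) and -0.25 with hairpin 2 (SE 0.37, adjusted p = 0.64), and the difference of 1.25 passed (SE 0.32, adjusted p = 0.0022).

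MED28, a subunit of the Mediator complex, averaged 88.2 ± 3.93 CPM in hairpin 1 libraries, 82.8 ± 1.53 CPM in hairpin 2 libraries and 71.2 ± 2.46 CPM in shGFP, with all hairpin libraries above shGFP (log2 0.31 with hairpin 1, edgeR adjusted p = 8.7e-09, and 0.22 with hairpin 2, adjusted p = 1.7e-05). ZBTB10, a zinc finger protein, averaged 601 ± 12.8 CPM in hairpin 1 libraries, 609 ± 33.9 CPM in hairpin 2 libraries and 499 ± 10.7 CPM in shGFP. It rose with both hairpins (log2 0.27 with hairpin 1, edgeR adjusted p = 4.3e-11, and 0.29 with hairpin 2, adjusted p = 1.6e-11). MAF, a basic leucine zipper factor, had 8, 18 and 21 counts in hairpin 1 libraries, 7, 7 and 3 in hairpin 2 libraries and 6, 4 and 11 in shGFP. These counts did not pass the filter. In CPM, the shGFP libraries overlapped those of each hairpin. The hairpin 1 libraries (lowest 0.397 CPM) all lay above the hairpin 2 libraries (highest 0.278 CPM). The summed level of MAF with hairpin 1 was 2.18 of that in shGFP (exact interval 1.28 to 3.85, counting error only). With hairpin 2 it was 0.696 (0.345 to 1.39).

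The signalling, chaperone and scaffold proteins held the largest rise, that of NDRG1. Of their 6 tested genes 5 were higher over both hairpins, 0 were lower and PDLIM5 did not pass, while with hairpin 2 alone 4 were higher. Of all genes tested 22.3% were higher over both hairpins, and 28.8% of those of at least 10 CPM on average. With hairpin 2 alone 17.2% of all genes were higher. NDRG1 (ENSG00000104419.16, chromosome 8, 133237171 to 133302022), a cytoplasmic protein induced by stress, hypoxia and androgen, had 90.2, 87.3 and 90.4 CPM in hairpin 1 libraries, 57.0, 51.8 and 57.2 CPM in hairpin 2 libraries and 31.3, 28.5 and 31.0 CPM in shGFP. The 3 groups were apart, with hairpin 1 highest and shGFP lowest. The level was 2.95-fold that of shGFP with hairpin 1 (log2 1.56, SE 0.05, edgeR adjusted p = 4e-29) and 1.82-fold with hairpin 2 (log2 0.87, SE 0.05, adjusted p = 9.4e-19). PMEPA1, a membrane adaptor that dampens TGF-beta signalling, had 24.5, 22.3 and 22.5 CPM in hairpin 1 libraries, 17.9, 17.0 and 20.2 CPM in hairpin 2 libraries and 15.5, 15.4 and 13.5 CPM in shGFP. Its groups followed the same order without overlap, with log2 fold changes of 0.65 with hairpin 1 (SE 0.08, edgeR adjusted p = 1.7e-09) and 0.31 with hairpin 2 (SE 0.08, adjusted p = 0.0015).

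FKBP5 (ENSG00000096060.14), an Hsp90 co-chaperone of steroid receptors that androgens and glucocorticoids both induce, had 208, 204 and 205 CPM in hairpin 1 libraries, 199, 199 and 190 CPM in hairpin 2 libraries and 165, 163 and 167 CPM in shGFP. The rise was small but clear of the spread, at log2 0.32 with hairpin 1 (SE 0.03, edgeR adjusted p = 1.1e-12) and 0.25 with hairpin 2 (SE 0.03, adjusted p = 1.4e-09). HOMER2, a scaffold protein of calcium signalling, averaged 44.6 ± 3.46 CPM in hairpin 1 libraries, 41.7 ± 1.48 CPM in hairpin 2 libraries and 34.9 ± 0.459 CPM in shGFP, and rose with both (log2 0.35 with hairpin 1 and 0.26 with hairpin 2). CAMKK2, a calcium-dependent kinase upstream of AMPK, averaged 172 ± 2.36 CPM in hairpin 1 libraries, 149 ± 5.08 CPM in hairpin 2 libraries and 149 ± 2.17 CPM in shGFP. It was higher with hairpin 1 (log2 0.20, edgeR adjusted p = 2.9e-07) and at log2 0.00 with hairpin 2. Its call over both hairpins (log2 0.10, adjusted p = 0.0014) was lost with GC and length offsets (0.04, adjusted p = 0.14). PDLIM5, a PDZ and LIM domain scaffold, averaged 62.9 ± 0.672 CPM in hairpin 1 libraries, 58.7 ± 2.55 CPM in hairpin 2 libraries and 59.3 ± 1.86 CPM in shGFP, and it passed over both hairpins only with those offsets (log2 0.13, adjusted p = 0.0021). HERC3, a ubiquitin ligase, had 13 counts in all 9 libraries together and was not tested. A second identifier with the same symbol held 2 counts, and how reads shared by overlapping genes were assigned was not tested.

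**Figure D2:**
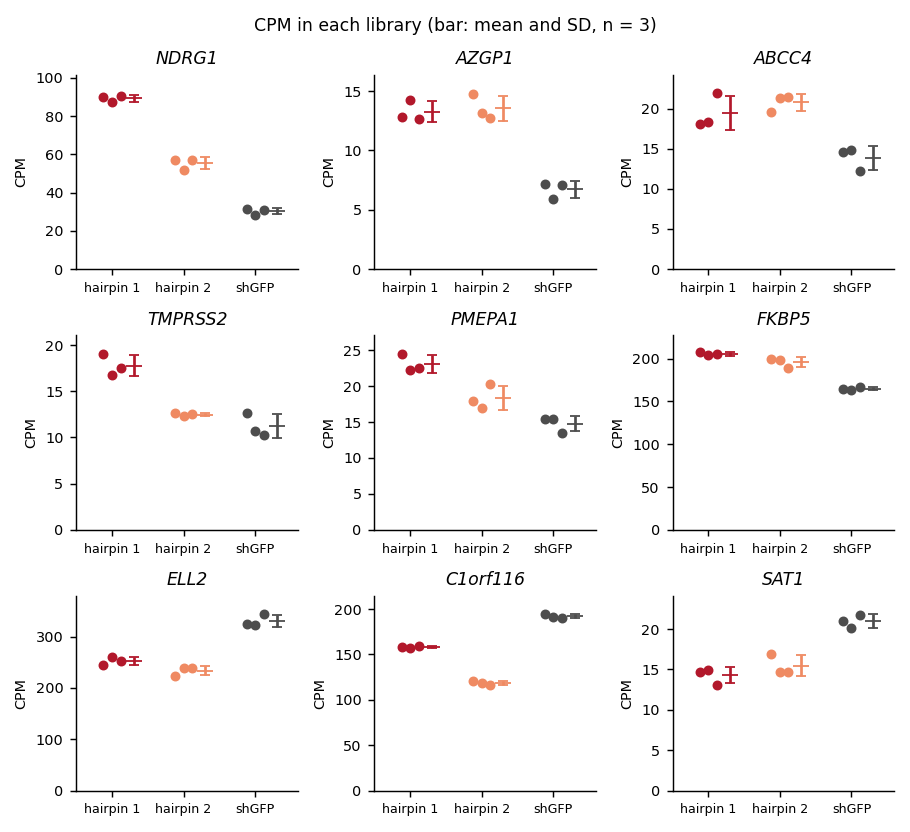
CPM (vertical axis, from 0) of 9 androgen-regulated genes in each library, with hairpin 1 in dark red, hairpin 2 in orange and shGFP in grey, and the mean with its SD (n = 3) beside the points. NDRG1 and PMEPA1 show 3 separate levels, AZGP1 a rise with both hairpins, TMPRSS2 a rise with hairpin 1, and ELL2, C1orf116 and SAT1 lower levels with both.

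Of the genes of vesicle traffic and other cell biology, C1orf116 fell with both hairpins. C1orf116 (ENSG00000182795.13, chromosome 1, 207018521 to 207032756), also called specifically androgen-regulated gene, had 158, 157 and 159 CPM in hairpin 1 libraries, 121, 119 and 117 CPM in hairpin 2 libraries and 194, 191 and 191 CPM in shGFP. The groups were apart, and hairpin 2 had the lowest level. The log2 fold changes were -0.28 with hairpin 1 (SE 0.03, edgeR adjusted p = 4.8e-11) and -0.69 with hairpin 2 (SE 0.03, adjusted p = 2.4e-23). CENPN, a centromere protein, rose with both (log2 0.20 with hairpin 1, edgeR adjusted p = 1e-05, and 0.10 with hairpin 2, adjusted p = 0.031). The CENPN call with hairpin 2 was lost in 7 of 18 alternatives, among them without shGFP replicate 2 (0.08, adjusted p = 0.13), shGFP replicate 1 or hairpin 2 replicates 1 or 2. TPD52, a vesicle-associated protein amplified in prostate cancer, averaged 80.0 ± 2.94 CPM in hairpin 1 libraries, 80.7 ± 8.51 CPM in hairpin 2 libraries and 73.2 ± 5.04 CPM in shGFP, and its libraries overlapped. Its call over both hairpins (log2 0.13, edgeR adjusted p = 0.0098) was lost without shGFP replicate 2 (0.08, adjusted p = 0.19) and in the DESeq2 Wald test (adjusted p = 0.15). The TPD52 calls with single hairpins were lost there too, and without hairpin 1 replicates 2 or 3 or hairpin 2 replicates 2 or 3. RAB3B, a GTPase of regulated exocytosis, passed against shGFP with neither hairpin (log2 0.10 with hairpin 1 and -0.14 with hairpin 2), while the hairpins differed by 0.24 (edgeR adjusted p = 0.0063), a difference lost without hairpin 1 replicate 1 (0.20, adjusted p = 0.051).

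The 3 polyamine enzymes split. Polyamines are made from ornithine, which ODC1 decarboxylates to putrescine; SMS makes spermine, and SAT1 acetylates spermine and spermidine for breakdown or export. The prostate secretes spermine in large amounts. SAT1 (ENSG00000130066.16) had 14.7, 15.0 and 13.1 CPM in hairpin 1 libraries, 16.9, 14.7 and 14.7 CPM in hairpin 2 libraries and 21.1, 20.1 and 21.8 CPM in shGFP. All 6 hairpin libraries were below shGFP, with log2 fold changes of -0.56 with hairpin 1 (SE 0.08, edgeR adjusted p = 5.4e-08) and -0.44 with hairpin 2 (SE 0.08, adjusted p = 6.4e-06). SMS (ENSG00000102172.16) had 128, 124 and 123 CPM in hairpin 1 libraries, 114, 110 and 103 CPM in hairpin 2 libraries and 102, 96.4 and 103 CPM in shGFP. The hairpin 1 libraries stood apart, and the lowest hairpin 2 library was level with the highest shGFP library. SMS rose by log2 0.32 with hairpin 1 (edgeR adjusted p = 5.2e-10) and 0.12 with hairpin 2 (adjusted p = 0.0068), the second call lost without shGFP replicate 2 (0.09, adjusted p = 0.07). ODC1, by length the most abundant of the 32 genes at 205 CPM per kb of exon in shGFP, averaged 571 ± 5.85 CPM in hairpin 1 libraries, 575 ± 7.95 CPM in hairpin 2 libraries and 607 ± 5.76 CPM in shGFP. All 6 hairpin libraries were below the shGFP libraries, and the small fall passed with each (log2 -0.09 with hairpin 1, edgeR adjusted p = 0.0011, and -0.08 with hairpin 2, adjusted p = 0.0048). Of 8 other polyamine genes, 2 were higher over both hairpins, 2 were lower and 4 did not pass, beside 22.3% higher and 23.2% lower of all genes tested. With hairpin 1 the counts were 4 higher and 1 lower, beside 23.9% and 23.4% of all genes. With hairpin 2 they were 0 higher, 2 lower and 6 not passed, beside 17.2% higher and 18.5% lower of all genes. Over both hairpins AZIN1, the antizyme inhibitor that stabilises ODC1 protein, fell (log2 -0.23). OAZ2, an antizyme that marks ODC1 for degradation, rose in that comparison (log2 0.16), but not as a call with hairpin 2. AMD1, which supplies the aminopropyl donor, was at log2 0.09 over both hairpins (edgeR adjusted p = 0.00085) and was not called higher with hairpin 2. SRM, spermidine synthase, was at -0.08 over both (adjusted p = 0.025), a call lost without shGFP replicate 2 (-0.04, adjusted p = 0.31).

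Of the genes of sugar, lipid and methyl metabolism, ABHD2 fell clearly. ABHD2, a serine hydrolase of lipids, averaged 205 ± 6.06 CPM in hairpin 1 libraries, 191 ± 8.4 CPM in hairpin 2 libraries and 233 ± 3.74 CPM in shGFP, with every hairpin library below shGFP (log2 -0.18 with hairpin 1, edgeR adjusted p = 2e-06, and -0.29 with hairpin 2, adjusted p = 1.3e-10). SORD, sorbitol dehydrogenase, was higher with hairpin 1 (log2 0.15, adjusted p = 0.0006). With hairpin 2 it was at 0.02 (adjusted p = 0.64), and its near-identical pseudogene copy makes its counts uncertain. The SORD call over both hairpins (log2 0.09, adjusted p = 0.021) was lost without shGFP replicate 1 (adjusted p = 0.05) or 2 (0.07, adjusted p = 0.11). UAP1, which makes UDP-N-acetylglucosamine for glycosylation, averaged 73.0 ± 3.53 CPM in hairpin 1 libraries, 74.1 ± 2.93 CPM in hairpin 2 libraries and 78.0 ± 0.404 CPM in shGFP. Its log2 fold change over both hairpins was -0.09 (edgeR adjusted p = 0.037), a call lost with GC and length offsets (-0.03, adjusted p = 0.47). It was also lost without any single shGFP library, hairpin 1 replicate 2 or hairpin 2 replicate 2 (adjusted p = 0.071 to 0.13). The DESeq2 Wald test (adjusted p = 0.08) and edgeR without the low-count filter (adjusted p = 0.057) lost it too. UAP1 passed with hairpin 1 (-0.10, edgeR adjusted p = 0.045), a call lost in 10 of 18 alternatives, but not with hairpin 2 (-0.08, adjusted p = 0.13). PLPP1, a lipid phosphate phosphatase, did not pass (log2 -0.05, adjusted p = 0.1) except without shGFP replicate 3 (-0.07, adjusted p = 0.044). Neither did GNMT, glycine N-methyltransferase, which had 10 to 27 counts in each library. Among 7 tested neighbours in hexosamine and polyol metabolism 2 were higher and 3 lower over both hairpins, beside 22.3% and 23.2% of all genes tested. With hairpin 1 the counts were 1 higher and 4 lower, beside 23.9% and 23.4% of all genes. With hairpin 2 they were 3 higher and 2 lower, beside 17.2% and 18.5%. Over both hairpins PGM3, the step before UAP1, was at log2 -0.33 and UGDH, which uses UDP-glucose, at -0.29. One of the higher calls, KHK (0.23, edgeR adjusted p = 0.031), was lost without any single shGFP library (adjusted p = 0.063 to 0.081), hairpin 1 replicate 1 or hairpin 2 replicate 3, in DESeq2, without the low-count filter and with GC and length offsets. The lower call of GNPNAT1 (-0.18, adjusted p = 2e-05) was also lost with those offsets (-0.03, adjusted p = 0.4). UXS1, which did not pass without them, was higher with the offsets (0.17, edgeR adjusted p = 0.0069).

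Between the hairpins, every androgen-regulated gene that passed was higher with hairpin 1: 15 were higher, 0 lower and 14 did not pass (edgeR quasi-likelihood test, adjusted p under 0.05). Without STEAP4, which was tested only through its level in shGFP, 14 were higher, 0 lower and 14 not passed. Of all genes tested 29.2% were called in this comparison, 15.6% higher with hairpin 1 and 13.6% lower. Those shares were 23.9% and 19.4% among the genes averaging 10 CPM or more, beside 13 and 0 of the 25 androgen-regulated genes at that level. At an unadjusted p under 0.05, 0 were lower in edgeR, and DESeq2 called 0 lower at either threshold. The median log2 difference, hairpin 1 minus hairpin 2, was 0.11 over the 29 genes and 0.00 over all genes tested, and its median size was 0.12 against 0.14. Genes that were higher than shGFP with both hairpins and more so with hairpin 1 include NDRG1 (difference 0.70, SE 0.04, edgeR adjusted p = 2.3e-17) and PMEPA1 (0.34, SE 0.07, adjusted p = 0.00033). C1orf116 (0.41, SE 0.03, adjusted p = 5e-15) and ELL2 (0.11, SE 0.03, adjusted p = 0.0045) fell with both and more with hairpin 2. The ELL2 difference was lost without hairpin 1 replicate 2 (0.09, adjusted p = 0.051) or hairpin 2 replicate 1 (0.07, adjusted p = 0.063), and the SLC45A3 difference (0.17, adjusted p = 0.034) in 9 of 18 alternatives, among them without hairpin 1 replicate 1 (0.15, adjusted p = 0.12) or 2, or hairpin 2 replicate 1 or 3. The CENPN difference was lost without hairpin 1 replicate 2 (0.07, adjusted p = 0.22) or hairpin 2 replicate 2 or 3, and the ABHD2 difference without hairpin 1 replicate 3 (0.09, adjusted p = 0.071) or hairpin 2 replicate 1. Offsets for GC content and length raised the number of genes higher with hairpin 1 to 20, adding FKBP5 (0.13, adjusted p = 9.6e-05), PDLIM5, HOMER2, MED28, ZBTB10 and TPD52 and losing SLC45A3 (0.10, adjusted p = 0.26). Tested in edgeR against a minimum fold change of 1.5 between the hairpins, 0 of these genes passed after adjustment and 3 at an unadjusted p under 0.05. CHD9 itself was lower with hairpin 1 than with hairpin 2 (-0.28, adjusted p = 0.0024), a difference lost with the same offsets (-0.17, adjusted p = 0.062).

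**Figure D3:**
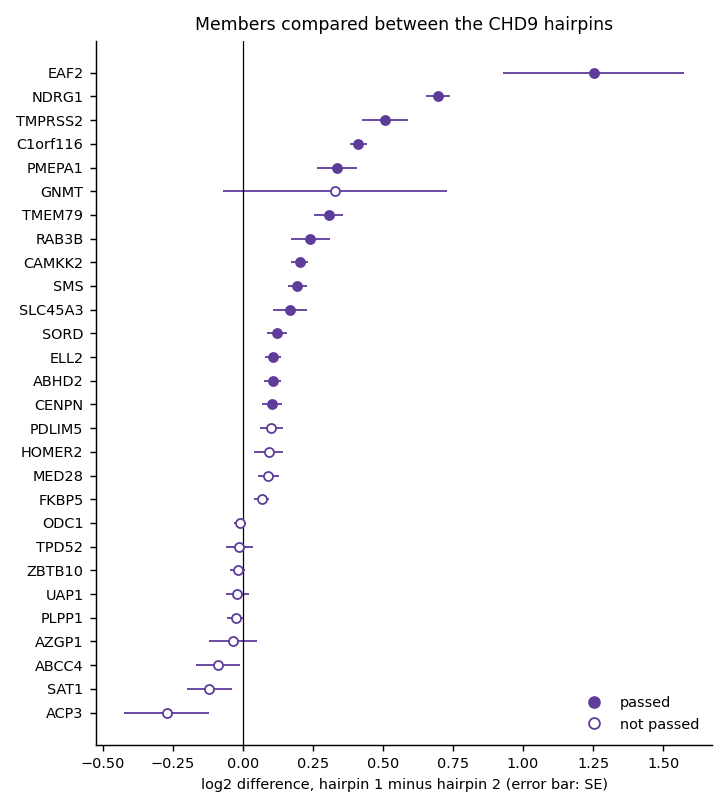
Log2 difference between hairpin 1 and hairpin 2 (horizontal axis, hairpin 1 minus hairpin 2) of 28 androgen-regulated genes, with standard errors as bars and filled points for those that passed the edgeR test. All filled points lie to the right of 0, with EAF2 at 1.25, NDRG1 at 0.70 and TMPRSS2 at 0.51, and STEAP4, at 2.58 on few counts, is not drawn.

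Other androgen response genes were more often lower than higher. Of 51 tested genes of a further androgen response list, 10 were higher over both hairpins, 23 were lower and 18 did not pass, with a median log2 fold change of -0.13. Of all genes tested, 22.3% were higher and 23.2% lower over both hairpins. With hairpin 1 the counts in the list were 11 higher and 23 lower, beside 23.9% and 23.4% of all genes. With hairpin 2 they were 6 higher and 23 lower, beside 17.2% and 18.5% of all genes. The 4 genes of the list with the smallest p all fell. They were SLC38A2, an amino acid transporter (log2 -0.65, edgeR adjusted p = 1.5e-29), ACSL3, which activates fatty acids (-0.61, adjusted p = 8.9e-22), FADS1, a fatty acid desaturase (-0.41, adjusted p = 1.6e-19), and MAP7, a microtubule-associated protein (-0.55, adjusted p = 3e-19). All 4 prostate kallikreins were higher over both hairpins, with KLK4 at log2 0.98, KLK2 at 0.55, KLK3 at 0.50 and KLK15 at 0.40. The KLK15 call was lost without shGFP replicate 3 (0.30, edgeR adjusted p = 0.13). With hairpin 1 all 4 were higher, and with hairpin 2, 3 were higher and 1 did not pass. Whether these lists differ from the androgen-regulated genes above was not tested.

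**Figure D4:**
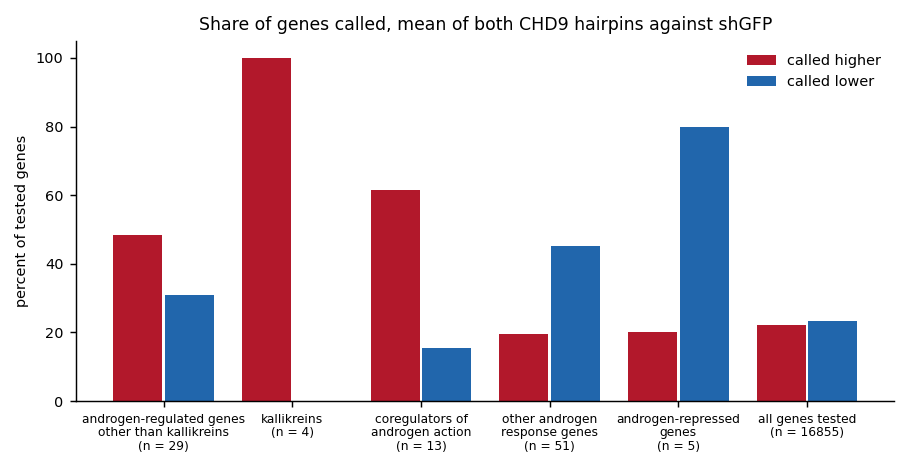
Percent of tested genes called higher (red) and lower (blue) over both CHD9 hairpins against shGFP, for the androgen-regulated genes other than kallikreins, 4 other lists and all 16855 genes tested. The first list has 14 of 29 higher and 9 of 29 lower, beside 22.3% and 23.2% of all genes. STEAP4, tested only through its level in shGFP, is among the 9.

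Beside the lists that follow stand the shares of all genes tested. Over both hairpins 22.3% were higher and 23.2% lower. These shares were 23.9% and 23.4% with hairpin 1, and 17.2% and 18.5% with hairpin 2. Of 13 enhancer and coregulator proteins linked to androgen action, 8 were higher over both hairpins and 2 lower, or 4 higher with GC and length offsets. GATA2 (log2 0.99) and HOXB13 (0.64), which bind at prostate enhancers, rose, as did GRHL2, an epithelial factor (0.29), and FOXA1, the pioneer factor, fell (-0.29). Of 5 tested genes known to be repressed by androgen 4 fell, UGT2B15 (log2 -1.70), which glucuronidates androgens and has near-identical family members, MET (-1.03), FOLH1 (-0.22) and CCN3 (-0.22), the last lost without shGFP replicate 1 (-0.18, edgeR adjusted p = 0.095). CAMK2N1 was higher (0.38), a call also lost without shGFP replicate 1 (0.25, adjusted p = 0.086). Glucocorticoids and androgens share FKBP5 and other targets, and NR3C1, the gene of the glucocorticoid receptor, fell (log2 -0.58), while 4 of 7 genes of the glucocorticoid list, among them TSC22D3 (0.31), rose over both hairpins. All 4 were higher with hairpin 1, but with hairpin 2 only KLF9 was higher (log2 0.32), 2 genes were lower and 4 did not pass. The KLF9 call over both hairpins was lost without shGFP replicate 2 (0.28, edgeR adjusted p = 0.051). For NDRG1, the hypoxia list was mixed: 3 of 10 were higher, NDRG1 included, and 2 lower, EGLN3 (log2 -0.70) and ADM (-1.35). For ELL2 and EAF2, the super elongation complex and ELL partners had 5 of 11 genes lower over both hairpins, ELL2 included, and 6 not passed, EAF2 included. The lower call of ELL was lost without shGFP replicate 2 (-0.12, edgeR adjusted p = 0.12) or hairpin 1 replicate 3 (-0.13, adjusted p = 0.063). With hairpin 1, ELL3 and EAF2 were higher and 4 genes lower, and with hairpin 2, 0 were higher and 3 lower. With GC and length offsets AFF4 (0.11, edgeR adjusted p = 0.0029) and CCNT1 (0.14, adjusted p = 1.5e-05) were higher over both. MLLT1 was lower over both with these offsets (-0.18, adjusted p = 4.4e-07). MLLT3, a reader of acylated histones in that complex, fell by 0.72 on the log2 scale.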

How the data were processed

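RNA-seq libraries of polyadenylated RNA were made with a directional kit, per the labels' protocols. Per the submitters' processing notes, Trim Galore, STAR, DESeq2 and hg38 were used. Tool versions, the counting program, whether it used strand, and its annotation were not given in the sources used here, so overlapping or antisense genes and near-identical copies cannot be told apart. The deposited values are raw counts of reads for each gene, as the authors left them, without scaling. Libraries were grouped by their titles. Of 67071 identifiers, 60415 matched a table of gene names and 58528 GENCODE 29 (40401 in the same version), giving 60704 a symbol; gene coordinates and lengths are those of GENCODE 29 on GRCh38, and promoter windows those of RefSeq.

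The members and all lists were chosen with earlier results of these data known. Genes with a minimum count of 10 in filterByExpr (16855) were scaled by TMM, and CPM use the scaled totals. One quasi-likelihood model of 3 group means over 9 libraries was fitted in edgeR 4.0.16 (R 4.3.3), and Benjamini-Hochberg adjustment ran over all genes tested, with 0.05 as the threshold. Contrasts set the mean of both hairpins, hairpin 1 and hairpin 2 each against shGFP, and then hairpin 1 against hairpin 2. SDs are over 3 libraries; SEs come from the fitted coefficient and its F statistic. Intervals on low counts are exact, at 95%, and cover counting error only. Libraries of a group differed beyond counting noise (chi-square over its degrees of freedom 1.72 to 2.86), and the common coefficient of variation was 2.74%, so each library was kept as a replicate. Named genes are the members, CHD9 and up to 4 genes with the smallest p over both hairpins from each other list. Some genes of these lists are not reported here and were left out of the counts. The alternatives were DESeq2 size factors, the DESeq2 1.42.0 Wald test, no low-count filter, at least 1 CPM in 6 libraries, a minimum fold change of 1.5 in glmTreat, only the groups compared, the replicate number as a block, offsets for GC content and length (known for 97.8% of genes), both together, and leaving out each library.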

Additional observations from a re-analysis of the deposited data

Results flagged for a closer look

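EAF2, the ELL-associated factor, and RAB3B, the exocytosis GTPase, had log2 fold changes against shGFP on opposite sides of 0 with the 2 hairpins, and the difference between the hairpins passed the edgeR test. For EAF2 the values were 1.00 with hairpin 1 and -0.25 with hairpin 2, a difference of 1.25 (Benjamini-Hochberg adjusted p = 0.0022), and EAF2 was higher in 3 of 3 hairpin 1 libraries than in any hairpin 2 or shGFP library. For RAB3B the values were 0.10 with hairpin 1 and -0.14 with hairpin 2, a difference of 0.24 (edgeR adjusted p = 0.0063), and RAB3B passed against shGFP with neither hairpin. No test for single outlying values was run in groups of 3 libraries, but each library was left out in turn. The RAB3B difference was lost without hairpin 1 replicate 1 (0.20, edgeR adjusted p = 0.051). Both differences were lost against a minimum fold change of 1.5.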

How the results depend on the processing

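Over both hairpins, the counts of 14 higher and 9 lower were 13 and 8 in the DESeq2 Wald test or without a low-count filter, 14 and 8 with offsets for GC content and length, and 12 to 14 and 8 to 9 when a library was left out. With DESeq2 size factors and with the replicate number as a block, all 29 tested genes kept their side of the threshold and their direction (with the block, 14 higher and 9 lower). Deviations from group means correlated at -0.0223 to 0.0395 between same-numbered libraries and at -0.047 to 0.0383 between others, so no pairing by number was seen. These values include counting noise and cannot show whether same-numbered libraries were handled together, which the labels do not give.

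Tested against a minimum fold change of 1.5 in glmTreat, 2 genes were higher and 1 lower over both hairpins, 2 and 0 with hairpin 1 (0 lower also at an unadjusted p under 0.05), 2 and 2 with hairpin 2, and 0 were higher with hairpin 1 than with hairpin 2 (3 at an unadjusted p under 0.05). Of all genes, 396, 628, 242 and 34 passed in these 4 comparisons, and CHD9 did not (log2 -0.38, adjusted p = 1). The 1 androgen-regulated gene lower over both hairpins in glmTreat was STEAP4, which was tested only through its level in shGFP. STEAP4 was also among the 2 lower with hairpin 2. The number lower with hairpin 1 than with hairpin 2 ran from 0 to 1 when a library was left out, and the 1 was ZBTB10 without hairpin 2 replicate 1 (log2 -0.07, edgeR adjusted p = 0.022). ZBTB10 was higher with hairpin 1 with GC and length offsets (0.07, adjusted p = 0.0081). For each of these the cause was not tested. A fit on only the groups compared is the same fit for the mean of both hairpins, the filter of 1 CPM in 6 libraries left STEAP4, EAF2 and GNMT out, and DESeq2 gave some low genes no adjusted p. Depth limits STEAP4, EAF2, GNMT, MAF, HERC3 and TRPM8.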

Other observations

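Scaled to exon length, the tested androgen-regulated genes spanned a wide range of levels in the shGFP libraries. ODC1, the entry enzyme of polyamine synthesis, had 205 CPM per kb of exon and PLPP1, a lipid phosphatase, 106. ZBTB10, SMS and ELL2 followed at 48.8, 46.5 and 45.1, close enough that their order was not tested. FKBP5 had 15.5, NDRG1 3.08, TMPRSS2 1.83 and ABCC4 1.61. ACP3, a classic product of the prostate, stood at 1.00, and EAF2 and STEAP4 at 0.358 and 0.0524. All lengths are those of the merged exons in GENCODE 29, and the isoforms these cells use were not measured.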
